A study of Mus musculus with 14 samples.

Results

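The 39 genes described here carry the heart's fuel use. Of these, 19 serve the uptake, activation, mitochondrial import and beta-oxidation of fatty acids, and 20 serve glucose uptake and glycolysis down to lactate dehydrogenase. They were taken by name from a list, out of 21887 protein-coding genes on chromosomes 1 to 19, X and Y. At these genes, regions differing in the histone methyltransferase G9a or in the repressive histone marks H3K9me2 and H3K27me3 were examined in cardiomyocyte-enriched cells of C57BL/6J mice. One group came from sham hearts, which the labels record as untreated, and the other from hearts 1 week after transverse aortic constriction (TAC), which loads the left ventricle with pressure. There were 2 biological replicates per antibody and condition, 12 libraries in all. Another 2 libraries of input DNA, 1 per condition, were not used. The labels do not give age, sex or any pooling of animals. Cells were enriched rather than pure, so chromatin of other cardiac cells can contribute to every value.

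The adult heart draws most of its energy from fatty acids. They enter the cell through carriers such as Cd36, are bound by Fabp3, activated by Acsl1, and passed into mitochondria by the carnitine shuttle (Cpt1 outside, Slc25a20 across the inner membrane, Cpt2 inside), where acyl-CoA dehydrogenases and the trifunctional protein shorten them. Glucose enters through Slc2a1 or the insulin-responsive Slc2a4 and is committed to glycolysis by hexokinase and phosphofructokinase. Many of these steps have isoforms that differ by tissue, and pressure-loaded hearts are known to shift from fatty acids toward glucose. G9a, encoded by Ehmt2, places H3K9me2, and Polycomb complexes place H3K27me3. Both marks are associated with silent chromatin.

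The authors' deposited table of each antibody holds only regions called as differing. Every region has 4 whole numbers, which fall into a first and a second pair of libraries. The tables do not say which pair is sham, so a region is described as higher in one pair, "first" or "second", and the order was taken to be the same for all 3 antibodies. The log2 difference of a region compares the mean of its second pair with that of its first, after adding 1 to each mean, which understates the change of low regions. Values are written as those of the first pair versus those of the second. The p of each region is the authors'. A gene was counted where at least 1 listed region overlapped its gene body or the 2500 bp on either side. A region is called separated where the 2 values of one pair are both above the 2 values of the other. Library 1 of the second G9a pair stood apart: 9.34% of its values over all listed regions were 0, against 0.163% to 1.40% in the other 3. Of the 80 G9a regions at the 39 genes that were higher in the first pair, 24 (30.0%) had a 0 in that library, against 16.7% of all first-pair G9a regions. Without it, 67 of the 80 kept their direction (83.8%), against 90.1% of all such regions. Where that library was at 4 or below at a region described in the text, leaving out the other library of its pair instead gave log2 differences of -5.16 to -7.89.

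Region boundaries met the annotated start of few of the 39 genes. RefSeq promoter windows (assembly GRCm38.p6, the build mm10), from 250 bases before to 50 bases after a start, were matched for 37 genes. Slc2a4 and Cpt1b had none in the table used. A listed region overlapped a window at Acot2 (G9a, chr12:83987611-83987910, plus strand), Hk1 (H3K27me3, chr10:62379859-62380158, minus strand) and Pfkp (G9a, chr13:6648722-6649021, minus strand). None of these regions was separated. They are printed because they are the gene starts that the listed differences reached, 5′ to 3′, with the bases inside the region in capitals. The window of Mlycd (chr8:119394644-119394943, plus strand) is added in lower case throughout, because a separated G9a region begins 8 bases past its end.
Acot2: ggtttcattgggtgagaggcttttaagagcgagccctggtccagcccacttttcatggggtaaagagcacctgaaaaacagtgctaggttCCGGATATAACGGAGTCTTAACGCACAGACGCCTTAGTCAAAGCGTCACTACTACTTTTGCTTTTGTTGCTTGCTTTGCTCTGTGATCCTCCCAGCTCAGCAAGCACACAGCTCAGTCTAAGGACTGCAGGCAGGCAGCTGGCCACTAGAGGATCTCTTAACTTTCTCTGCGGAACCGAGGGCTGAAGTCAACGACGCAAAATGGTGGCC
Hk1: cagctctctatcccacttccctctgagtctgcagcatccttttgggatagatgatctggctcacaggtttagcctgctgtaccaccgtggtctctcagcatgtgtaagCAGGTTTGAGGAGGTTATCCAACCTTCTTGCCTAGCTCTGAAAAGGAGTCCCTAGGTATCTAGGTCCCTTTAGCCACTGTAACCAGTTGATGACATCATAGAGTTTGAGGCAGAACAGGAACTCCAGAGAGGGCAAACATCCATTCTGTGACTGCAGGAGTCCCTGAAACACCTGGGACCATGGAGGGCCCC
Pfkp: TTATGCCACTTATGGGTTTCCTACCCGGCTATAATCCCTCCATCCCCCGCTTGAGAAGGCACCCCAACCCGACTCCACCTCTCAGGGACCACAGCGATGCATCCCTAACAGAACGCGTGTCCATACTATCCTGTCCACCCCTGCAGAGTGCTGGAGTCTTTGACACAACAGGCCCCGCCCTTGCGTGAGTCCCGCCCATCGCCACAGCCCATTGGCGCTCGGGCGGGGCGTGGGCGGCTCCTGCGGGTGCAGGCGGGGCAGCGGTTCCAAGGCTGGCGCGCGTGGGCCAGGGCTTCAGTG
Mlycd: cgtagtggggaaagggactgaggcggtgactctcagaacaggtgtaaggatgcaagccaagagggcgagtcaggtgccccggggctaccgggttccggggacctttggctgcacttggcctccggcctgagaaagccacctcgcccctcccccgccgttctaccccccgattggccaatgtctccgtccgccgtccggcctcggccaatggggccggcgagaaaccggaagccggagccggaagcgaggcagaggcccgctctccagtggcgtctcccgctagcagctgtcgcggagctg
The G9a region covered 210 of the 300 bases at Acot2 and all 300 at Pfkp, and the H3K27me3 region covered 192 of 300 at Hk1. The windows differed in composition, with 10 CG pairs at Acot2, 21 at Pfkp, 27 at Mlycd and 1 at this upstream start of Hk1. Over the most upstream window of each gene, the median was 17 CG pairs for the 37 genes and 13 for 17492 protein-coding genes. The hexamer AGGTCA, known as the half-site of nuclear receptors, was found on either strand in 11 of 37 windows (29.7%), against 14.5% of all windows. None of the 4 printed windows holds it. The hexamer TATAAA was found in 1 of 37 (2.7%), against 13.3%. These are matches of letters in a window, not sites of binding.

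G9a regions were found at 29 of the 39 genes (74.4%), against 84.0% of all protein-coding genes counted the same way. They were higher in the first pair at 27 genes (69.2%, against 76.7% of all genes) and higher in the second pair at 13 (33.3%, against 55.5%), with 11 genes in both counts. H3K9me2 regions were found at 10 genes (25.6%, against 58.1%), higher in the first pair at 7 (17.9%, against 48.1%) and in the second at 6 (15.4%, against 38.8%). H3K27me3 regions were found at 11 genes (28.2%, against 66.7%), with 8 in each direction (20.5%, against 58.3% in the first and 50.4% in the second pair). The genes thus had listed regions less often than the background in all 9 of these counts, which are descriptions without a test. The median gene of the fatty acid list was 22291 bp long and that of the glycolysis list 17154.5 bp, against 17169.0 bp for all genes. By sequence, listed G9a regions covered 6.36% of the gene windows, H3K9me2 regions 0.667% and H3K27me3 regions 3.15%, against 11.1%, 4.71% and 19.7% over all genes.

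At 9 genes no region was listed in any table: Acadl, the long-chain acyl-CoA dehydrogenase, Hadhb, a subunit of the trifunctional protein, the uncoupling protein gene Ucp3, the glucose carrier gene Slc2a4, and Aldoa, Gapdh, Pgk1, Pgam2 and Eno3, enzymes of the middle and lower part of glycolysis. A gene absent from a table of differing regions was not shown to be equal between conditions, nor to lack the mark. Pgk1 lies on the X chromosome, where listed regions were sparse: 15.9% of 966 X-linked genes had a G9a region, 13.5% an H3K9me2 region and 38.0% an H3K27me3 region. Another 13 genes had G9a regions only, 6 had G9a with H3K9me2, 7 had G9a with H3K27me3, and 3 (Hk1, Pfkm and Ldha) had regions in every table. Acads was the 1 gene with H3K9me2 and H3K27me3 regions and none of G9a. How many of all protein-coding genes fall in each of these combinations, or in none, was not counted.

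**Figure D1:**
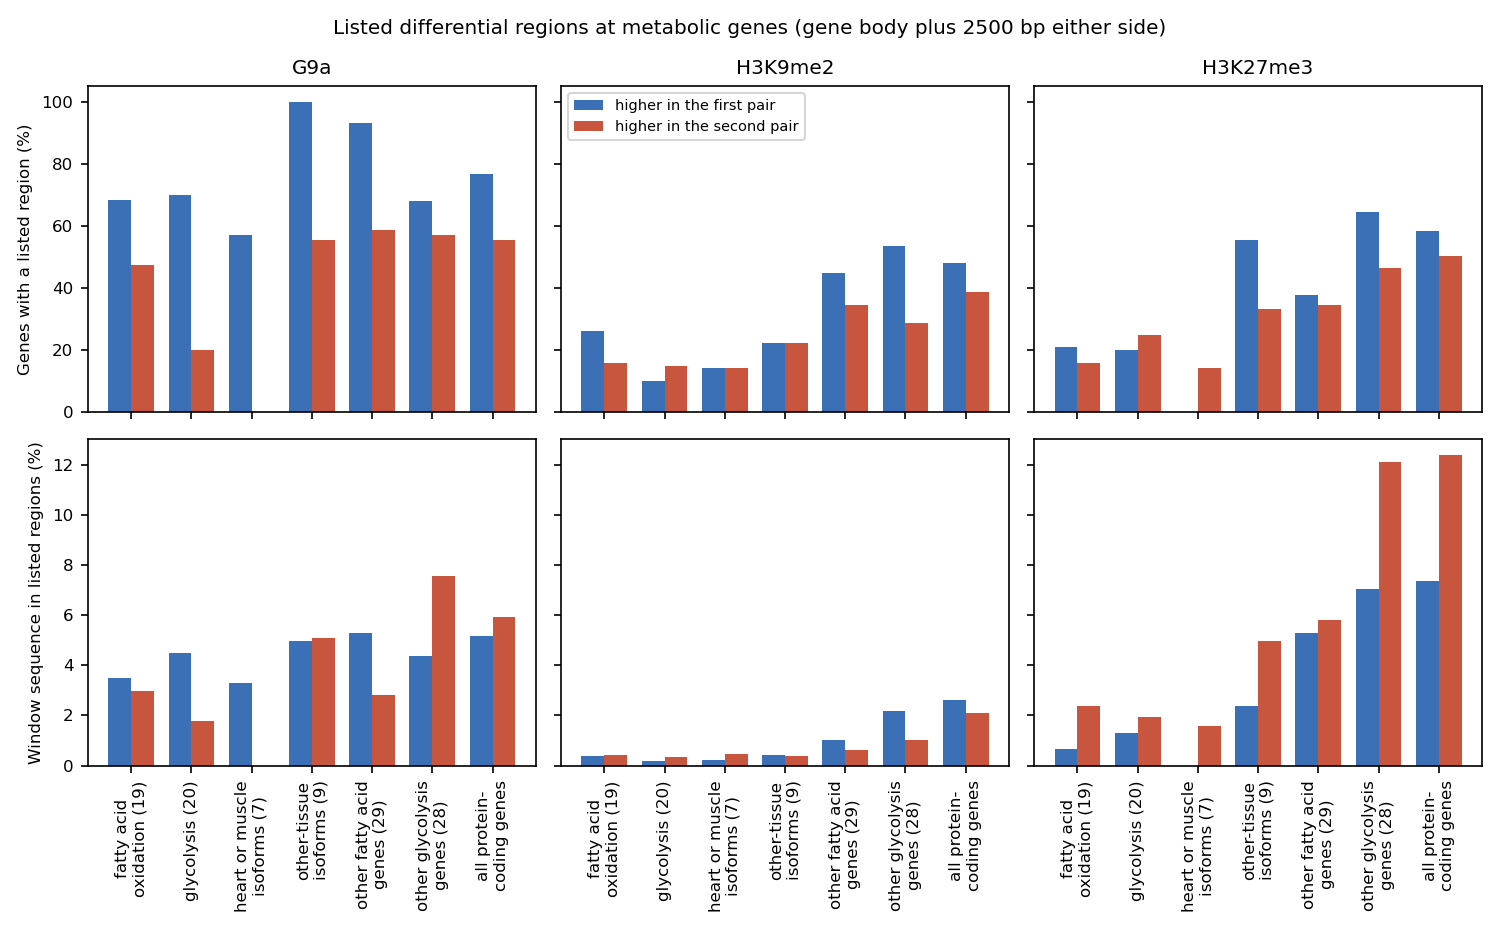
Upper panels show the percent of genes of each list with a listed region, and lower panels the percent of window sequence in listed regions, for G9a, H3K9me2 and H3K27me3, with bars for regions higher in the first (blue) and second (red) pair and the number of genes in brackets. Heart or muscle isoforms have no G9a bar for the second pair and no H3K27me3 bar for the first, and both pathways lie below all protein-coding genes in every panel of the upper row.

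The 39 genes held 112 listed G9a regions, 80 higher in the first pair and 32 in the second. Of these, 64 were separated (57.1%, against 61.3% of all G9a regions). Their median log2 difference was -1.20 for the first-pair and 1.12 for the second-pair regions, against -1.08 and 1.01 over the whole table. The pathways had equal totals, 56 regions each, but a different balance: 21 regions (37.5%) at fatty acid genes and 11 (19.6%) at glycolysis genes were higher in the second pair, against 44.5% of all G9a regions. Of the 11, 7 lay at Hk1, and of the 21, 6 lay at Cpt1c and 5 at Mlycd. By gene, 9 of 19 fatty acid genes (47.4%) and 4 of 20 glycolysis genes (20%) had a second-pair region, against 55.5% of all genes. Separated G9a regions were 37 of 56 at fatty acid genes (66.1%) and 27 of 56 at glycolysis genes (48.2%). Among first-pair regions they were 24 of 35 (68.6%) and 19 of 45 (42.2%), against 59.8% of all first-pair G9a regions. The first-pair regions of glycolysis thus more often had overlapping pairs. The difference between the pathways was not tested. Within gene bodies alone, without the flanks, second-pair regions were left at 5 fatty acid genes and at 4 glycolysis genes.

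Fatty acid uptake and activation showed mostly first-pair G9a regions. At Fabp3, the heart fatty acid binding protein, the region at chr4:130306151-130306900, 1838 bp outside the gene, had 154 and 167 in the first pair, versus 0 and 70 in the second pair, per the authors' deposited table (log2 difference -2.17, -log10 p 18.6). At Acsl1, the long-chain acyl-CoA synthetase, an intragenic region at chr8:46516751-46517800 had 217 and 255 versus 0 and 139 per the authors' deposited table (log2 difference -1.75, -log10 p 20.7). The pairs did not overlap at either gene, and the 0 stood in library 1 of the second pair each time; without that library the differences were -1.19 and -0.76. Acsl1 carried 9 G9a regions in all, 7 of them first-pair. Cd36, the sarcolemmal fatty acid carrier, had 1 G9a region, at 0 and 33 versus 6 and 91 per the authors' deposited table, with overlapping pairs. Its log2 difference of 1.5 did not keep its direction: it was -1.32 without library 2 of the second pair, and 0.54 without library 1 and 5.63 without library 2 of the first.

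The carnitine shuttle held the lowest log2 differences among the G9a regions of the 39 genes, and Cpt1c, described below, held the highest. Slc25a20, which exchanges acylcarnitine for carnitine across the inner mitochondrial membrane, had 6 G9a regions, all higher in the first pair. At chr9:108666251-108666800 its values were 139 and 126 versus 0 and 17 per the authors' deposited table (log2 difference -3.81, -log10 p 28). The region at chr9:108669401-108669850 had 91 and 102 versus 6 and 3 per the authors' deposited table (log2 difference -4.15, -log10 p 22.1). Here library 1 was not at 0, the pairs were far apart, and the difference was -4.61 without that library. Cpt2, the inner-membrane carnitine palmitoyltransferase, had 3 first-pair regions and 1 second-pair region, and Cpt1a, its outer-membrane counterpart of liver, had 4 first-pair regions. Without library 1 of the second pair, Cpt1a regions at chr19:3364151-3364800 and chr19:3348551-3349000 turned to 0.33 and 0.02. At Cpt1b, the outer-membrane enzyme of heart and muscle, 1 region 2105 bp outside the gene had 55 and 91 versus 11 and 31 per the authors' deposited table (log2 difference -1.75, -log10 p 6.86), with the pairs apart.

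Cpt1c, the neuronal relative of these enzymes, had G9a values in the other direction. It carried 7 G9a regions over and beside a gene of 16398 bp, 6 of them higher in the second pair. The region at chr7:44964401-44966950 had 133 and 204 versus 947 and 555 per the authors' deposited table (log2 difference 2.15, -log10 p 85.1), the smallest p of any G9a region at the 39 genes. A further region 1783 bp outside the gene, also within the window of its neighbour Tsks, had 28 and 113 versus 451 and 348 per the authors' deposited table (log2 difference 2.49, -log10 p 54.1). Summed over its regions per the authors' deposited table, Cpt1c had 836 and 1211 versus 2892 and 2406. Every library of the second pair was above every library of the first in these regions and in the sum. The sum adds regions already listed as differing, 6 of the 7 toward the second pair, so its direction follows from that selection. The difference of the region beside Tsks was 3.79 without library 2 of the first pair.

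Among the beta-oxidation enzymes, first-pair G9a regions were again the more frequent. Acadm, the medium-chain acyl-CoA dehydrogenase, had 124 and 234 versus 3 and 73 at chr3:153929301-153930100 per the authors' deposited table (log2 difference -2.21, -log10 p 21.2). Hadha, the alpha subunit of the trifunctional protein, had 138 and 199 versus 0 and 71 at chr5:30133851-30134650 per the authors' deposited table (log2 difference -2.22, -log10 p 20.2). Its 1 second-pair region, at 87 and 55 versus 126 and 213 per the authors' deposited table, lay 2323 bp outside the gene and also within the window of Garem2. The pairs were apart in all 3 regions. Without library 1 of the second pair, the first-pair differences were -1.28 at Acadm and -1.24 at Hadha, and without library 2 of that pair the second-pair difference of Hadha went from 1.24 to 0.82. Acadvl, the very-long-chain dehydrogenase, had 2 first-pair regions and 1 second-pair region (44 and 73 versus 134 and 122 per the authors' deposited table, 1423 bp outside the gene and in the window of Dlg4). Hadh, a hydroxyacyl-CoA dehydrogenase, had 2 in each direction, and Echs1, an enoyl-CoA hydratase, 1 first-pair region.

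Mlycd, malonyl-CoA decarboxylase, removes the malonyl-CoA that inhibits Cpt1, and it joined Cpt1c with regions higher in the second pair. All 5 of its G9a regions had that direction. At chr8:119420401-119422100 its values were 48 and 243 versus 524 and 523 per the authors' deposited table (log2 difference 1.84, -log10 p 48.3). The region 8 bases past its promoter window, chr8:119394951-119395850, had 57 and 91 versus 158 and 273 per the authors' deposited table (log2 difference 1.53, -log10 p 15.5). Both regions had separated pairs. The first of them differed by 1.1 without library 1 of the first pair and by 3.42 without library 2. Acot2, a mitochondrial acyl-CoA thioesterase, had 2 second-pair regions and 1 first-pair region. The one 2011 bp outside the gene, in the window of Heatr4, had 55 and 91 versus 269 and 232 per the authors' deposited table (log2 difference 1.76, -log10 p 21.9). The one over the promoter printed above had 4 and 60 versus 55 and 64 per the authors' deposited table (log2 difference 0.87, -log10 p 2.28), with overlapping pairs and a difference of -0.01 without library 1 of the first pair and 3.6 without library 2. Acot2 has a close relative, Acot1, and no source used here says how reads matching both were treated.

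**Figure D2:**
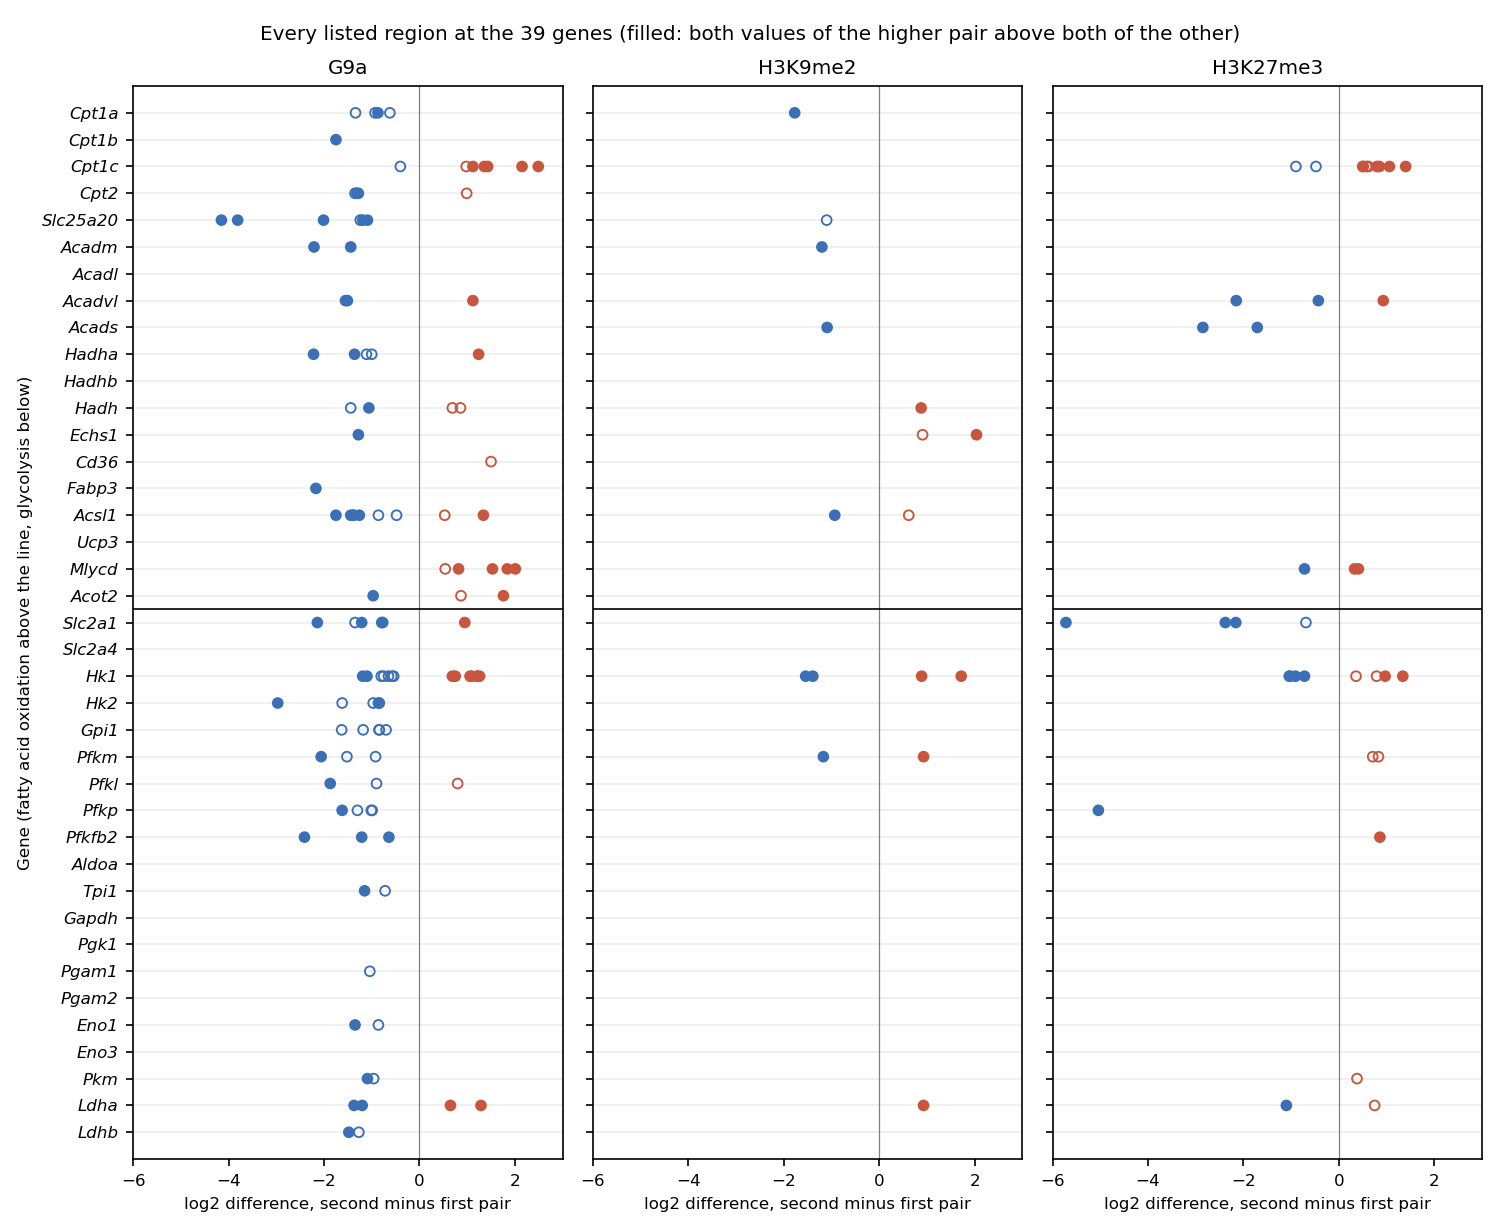
Each point is a listed region at 1 of the 39 genes, placed by its log2 difference (second minus first pair) for G9a, H3K9me2 and H3K27me3, filled where the pairs are separated and open where they overlap. Slc25a20 reaches -4.15 and Cpt1c 2.49 in the G9a panel, glycolysis genes lie mostly left of 0 there, and 9 genes have no point in any panel.

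At the glycolysis genes, G9a differences higher in the first pair were listed from hexokinase to lactate dehydrogenase. Hk2, the insulin-regulated hexokinase of muscle, had 5 regions, all first-pair. At chr6:82763651-82764000 its values were 76 and 71 versus 0 and 17 per the authors' deposited table (log2 difference -2.97, -log10 p 12.8), with the pairs apart. Other Hk2 regions had overlapping pairs. Those at chr6:82723101-82723400 and chr6:82747301-82747700 turned to 0.67 and 0.65 without library 2 of the first pair. Gpi1, glucose-6-phosphate isomerase, had 5 first-pair regions, none of them separated. Some of these lost their direction without library 1 of the second pair, the furthest at 0.22. The phosphofructokinase of muscle, Pfkm, had 82 and 158 versus 0 and 56 at chr15:98118101-98118700 per the authors' deposited table (log2 difference -2.06, -log10 p 13.3). That of liver, Pfkl, had 104 and 275 versus 4 and 98 at chr10:78001101-78002000 per the authors' deposited table (log2 difference -1.87, -log10 p 18.1). Pairs were apart at both. The platelet form, Pfkp, had 62 and 222 versus 3 and 111 over its promoter per the authors' deposited table (log2 difference -1.3, -log10 p 8.37), where the pairs overlapped. Pfkfb2, a bifunctional enzyme that sets the level of the phosphofructokinase activator fructose-2,6-bisphosphate, had 82 and 129 versus 0 and 38 per the authors' deposited table, 948 bp outside the gene and in the window of AA986860 (log2 difference -2.41, -log10 p 14.1). Without library 1 of the second pair, these differences were -1.09 at Pfkm, -0.94 at Pfkl, -0.35 at Pfkp and -1.45 at Pfkfb2. Without library 2 of the first pair, they were -1.01 at Pfkl and -0.12 at Pfkp.

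In lower glycolysis, Tpi1, Pgam1, Eno1 and Pkm had 7 G9a regions, all higher in the first pair. Some of the 7 had overlapping pairs and lost their direction with 1 library left out. Such regions lay at Tpi1 (0.74 without library 1 of the first pair), Pkm (0.37 without library 2 of that pair) and Eno1 (0.12 without library 1 of the second). Eno1, the widely expressed enolase, had 166 and 288 versus 79 and 98 at chr4:150249651-150250900 per the authors' deposited table (log2 difference -1.35, -log10 p 13.8), 772 bp outside the gene. At Pgam1, a phosphoglycerate mutase, the values were 56 and 84 versus 0 and 67 per the authors' deposited table, and the pairs overlapped. Ldhb, the lactate dehydrogenase of heart, had 67 and 110 versus 0 and 62 at chr6:142507351-142507800 per the authors' deposited table (log2 difference -1.48, -log10 p 6.46). Ldha, that of skeletal muscle and many other tissues, had 2 regions in each direction. Its first-pair region at chr7:46851351-46852700 had 189 and 322 versus 25 and 171, and its second-pair region at chr7:46842501-46843400 had 122 and 22 versus 181 and 173, per the authors' deposited table (log2 differences -1.37 and 1.29). The pairs were apart at the Ldhb region and at both of Ldha. Without library 1 of the second pair, the first-pair differences were -0.51 at Ldhb, -0.58 at Ldha and -0.06 at Pgam1, and -3.3 at Ldha without library 2 of that pair. The second-pair difference of Ldha was 0.53 without library 2 and 2.95 without library 1 of the first pair.

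Second-pair G9a regions of glycolysis lay mostly at Hk1, the hexokinase of brain and many other tissues, which held 7 of the 11, and the others lay at Ldha, Pfkl and the glucose carrier gene Slc2a1. At chr10:62371251-62374600, near the 5′ end of Hk1, the values were 221 and 522 versus 981 and 615 per the authors' deposited table (log2 difference 1.1, -log10 p 34.0). Slc2a1, the basal glucose carrier of most cells, had 107 and 109 versus 171 and 249 at chr4:119132801-119133650 per the authors' deposited table (log2 difference 0.95, -log10 p 7.56). The pairs were apart in both regions. Slc2a1 also had 5 first-pair regions, the one with the smallest p at 90 and 124 versus 45 and 2 per the authors' deposited table (log2 difference -2.14, -log10 p 12.7). That value was -1.23 without library 2 of the second pair and -5.17 without library 1. Hk1 had 7 first-pair regions, and the difference of its second-pair region given above was 0.61 without library 1 and 1.85 without library 2 of the first pair, and 0.73 without library 1 of the second.

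H3K9me2, the mark that G9a places, had 16 listed regions at 10 genes, 8 in each direction. Of these, 13 were separated (81.2%, against 67.9% of all H3K9me2 regions). The fatty acid genes held 9 regions at 7 genes and the glycolysis genes 7 regions at 3. Cpt1a had the region with the smallest p, chr19:3364501-3365250 inside the gene, with 154 and 154 versus 70 and 19 per the authors' deposited table (log2 difference -1.77, -log10 p 13.8). It overlapped a G9a region of the same direction. Echs1 went the other way, with 19 and 38 versus 158 and 82 at chr7:140117751-140118300 per the authors' deposited table (log2 difference 2.04, -log10 p 13.1), 1330 bp outside the gene and in the window of Paox. Hk1 had 2 H3K9me2 regions in each direction, the one with the smallest p at 59 and 34 versus 92 and 218 per the authors' deposited table (log2 difference 1.72, -log10 p 13.3). Pairs were apart in these 3 regions. Without library 2 of the second pair, the differences were -1.13 at Cpt1a and 0.97 at Hk1, and without library 1 of that pair -2.95 at Cpt1a.

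The other H3K9me2 regions had a -log10 p of at most 6.60. Besides those of Hk1 and Echs1, first-pair regions lay at Acadm, Acads, Acsl1, Slc25a20 and Pfkm. Second-pair regions lay at Hadh (32 and 57 versus 77 and 88 per the authors' deposited table, log2 difference 0.88), at Ldha, 2474 bp outside the gene (32 and 56 versus 93 and 77 per the authors' deposited table, log2 difference 0.93), and at Pfkm and Acsl1. The Acsl1 region, 144 and 33 versus 124 and 150 per the authors' deposited table, was not separated and had a difference of -0.07 without library 2 and 2.02 without library 1 of the first pair. Without library 1 of the first pair, the differences were 0.53 at Hadh and 0.59 at Ldha, and without library 2 of that pair 1.34 at Hadh.

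H3K27me3 had 37 listed regions at 11 genes, 17 higher in the first and 20 in the second pair, and 25 were separated (67.6%, against 69.2% of all H3K27me3 regions). Cpt1c, Hk1 and Slc2a1 held most of them. Cpt1c had 10 regions, 8 of them second-pair. At chr7:44969751-44972900 its values were 598 and 964 versus 1606 and 1208 per the authors' deposited table (log2 difference 0.85, -log10 p 39.2), with the pairs apart, and the difference was 0.55 without library 1 of the first pair. Summed over its regions per the authors' deposited table, H3K27me3 at Cpt1c was 2433 and 2902 versus 4388 and 4075. The sums of both antibodies cover listed regions only, including 1 first-pair G9a and 2 first-pair H3K27me3 regions, and are not signal over the whole gene. Their direction follows from the selection of those regions.

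Slc2a1 and Pfkp had the steepest H3K27me3 differences, both toward the first pair. Inside Slc2a1, at chr4:119125501-119125850, the values were 63 and 93 versus 1 and 0 per the authors' deposited table (-log10 p 22.4), so the second pair had almost no signal there and no fold is given. Inside Pfkp, at chr13:6621801-6622400, they were 159 and 103 versus 4 and 2 per the authors' deposited table (log2 difference -5.04, -log10 p 33.3). These regions were short, 350 and 600 bp, where the median H3K27me3 region of the table was 800.0 bp. Slc2a1 had 3 further H3K27me3 regions, all higher in the first pair, among them one 1345 bp outside the gene with 164 and 178 versus 67 and 8 per the authors' deposited table (log2 difference -2.16, -log10 p 20.3). That difference was -1.34 without library 2 and -4.26 without library 1 of the second pair.

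Hk1 had 8 H3K27me3 regions, 4 in each direction, interspersed in and just upstream of its 5′ part. The region at chr10:62361651-62363400 had 219 and 135 versus 455 and 443 per the authors' deposited table (log2 difference 1.34, -log10 p 26.5), and that at chr10:62374951-62377400 had 176 and 505 versus 716 and 623 per the authors' deposited table (log2 difference 0.97, -log10 p 23.8). The adjoining region at chr10:62373001-62374950 was higher in the first pair, with 372 and 514 versus 286 and 149 per the authors' deposited table (log2 difference -1.02, -log10 p 17.4). All 3 were separated. The second of them differed by 0.41 without library 1 and 1.92 without library 2 of the first pair, and the third by -0.63 without library 2 and -1.57 without library 1 of the second pair. The region over the promoter printed above had 424 and 212 versus 437 and 381 per the authors' deposited table (log2 difference 0.36, -log10 p 3.17), where the pairs overlapped, and the difference was -0.05 without library 2 and 0.94 without library 1 of the first pair.

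The remaining H3K27me3 regions lay at Acads, Acadvl, Mlycd, Pfkfb2, Pfkm, Pkm and Ldha. Acads, the short-chain acyl-CoA dehydrogenase, had 17 and 175 versus 10 and 15 at chr5:115110051-115110500 per the authors' deposited table (log2 difference -2.85, -log10 p 16.1). This value rested on library 2 of the first pair: without it the difference was -0.42. A second region of Acads had 68 and 74 versus 15 and 27 per the authors' deposited table (log2 difference -1.71, -log10 p 6.69). Those of Acadvl lay outside the gene toward Dlg4, those of Pkm and Pfkfb2 in the windows of Gramd2 and AA986860. Mlycd had 2 second-pair regions and 1 first-pair region, the latter at 266 and 336 versus 152 and 213 per the authors' deposited table (log2 difference -0.72, -log10 p 7.01). Ldha had 250 and 133 versus 112 and 66 per the authors' deposited table, 524 bp outside the gene (log2 difference -1.1, -log10 p 8.75). Pairs were apart in these regions of Mlycd and Ldha, and the difference at Ldha was -0.57 without library 1 of the first pair.

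**Figure D3:**
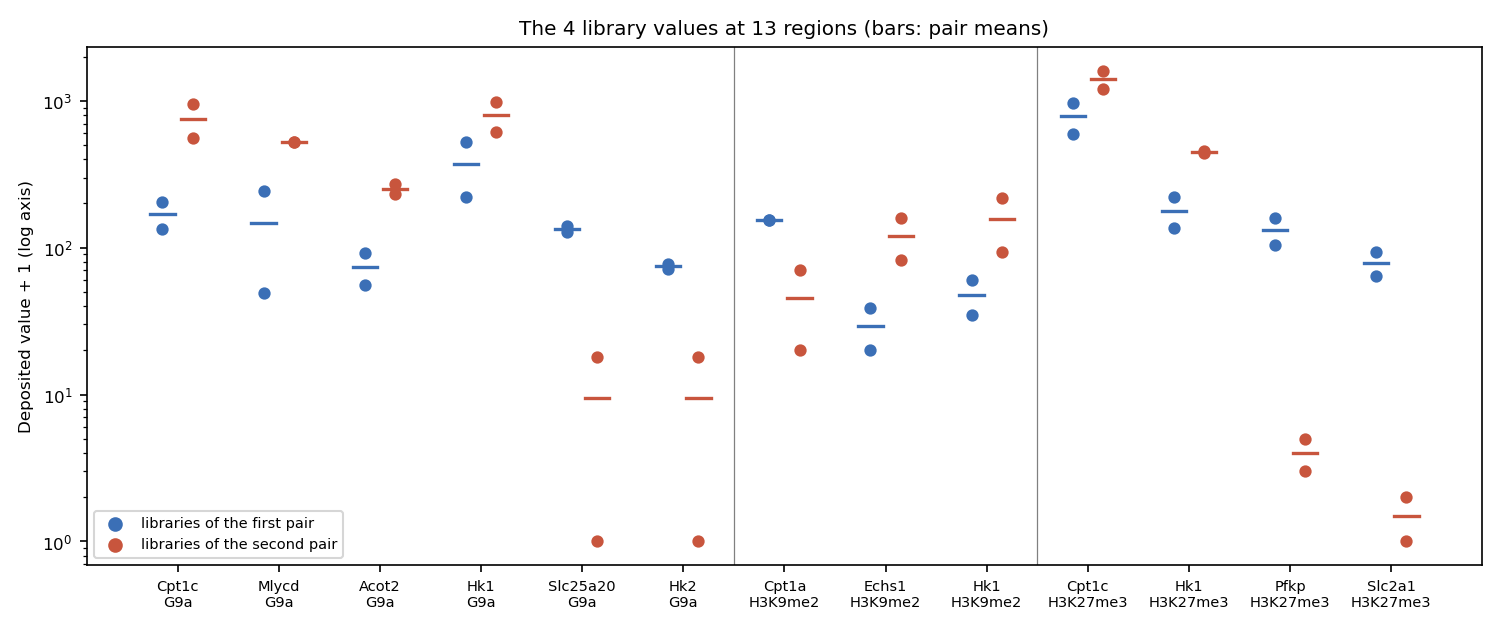
The deposited value plus 1 of each of the 4 libraries on a log axis is shown at 13 regions, with blue points for the first and red points for the second pair and bars for pair means. The 13 are a selection in which the pairs do not overlap, so their separation does not describe the listed regions at large. Of all listed regions at the genes of both pathways, 57.1% were separated for G9a, 81.2% for H3K9me2 and 67.6% for H3K27me3. Library 1 of the second pair is at 0 for G9a at Slc25a20 and Hk2. The second pair is at or near 0 for H3K27me3 at Pfkp and Slc2a1.

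The isoforms of heart or muscle (Cpt1b, Slc2a4, Hk2, Pfkm, Pgam2, Eno3 and Ldhb) were counted beside those better known from other tissues (Cpt1a, Cpt1c, Slc2a1, Hk1, Pfkl, Pfkp, Pgam1, Eno1 and Ldha). A G9a region was listed at 4 of 7 heart or muscle isoforms and at 9 of 9 others, with 84.0% of all genes as background. Of 11 G9a regions at the heart or muscle isoforms, 0 were higher in the second pair. Of 45 at the others, 17 were (37.8%, against 44.5% of all G9a regions), and 13 of these 17 lay at Cpt1c (6) and Hk1 (7). Of first-pair regions, 5 of 11 and 11 of 28 were separated (45.5% and 39.3%, against 59.8% of all). Library 1 of the second pair was at 0 in 4 and 5 of these (36.4% and 17.9%, against 16.7%). Some of the 11 lost their direction with 1 library left out, such as an Hk2 region at 0.65 without library 2 of the first pair. An H3K27me3 region was listed at 1 of 7 (Pfkm, 14.3%) and at 5 of 9 (Cpt1c, Slc2a1, Hk1, Pfkp and Ldha, 55.6%), against 66.7% of all genes. An H3K9me2 region was listed at 1 of 7 (Pfkm, 14.3%) and 3 of 9 (Cpt1a, Hk1 and Ldha, 33.3%), against 58.1%. The 2 H3K27me3 regions of Pfkm were higher in the second pair and not separated, the one with the smaller p at 285 and 165 versus 453 and 285 per the authors' deposited table (log2 difference 0.71, -log10 p 8.22). That difference was 0.37 without library 2 and 1.16 without library 1 of the first pair, and 0.34 without library 1 of the second. These differences between the isoform lists were not tested.

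Gene length differed between the isoform lists, with a median of 9458.0 bp for heart or muscle and 22861.0 bp for the other tissues, so less sequence was searched at the former. Per window sequence, listed H3K27me3 regions covered 1.57% at heart or muscle isoforms and 7.34% at the others, against 19.7% over all genes, and listed G9a regions covered 3.28% and 10.1%, against 11.1%. For H3K9me2 the shares were 0.651% and 0.778%, against 4.71%. Promoter composition differed as well: the 5 heart or muscle windows had a median of 4.0 CG pairs and the 9 others one of 20. The part of gene length and base composition in the counts was not tested. Ldha is the main lactate dehydrogenase of skeletal muscle, and moving it to the heart or muscle list raised that list to 2 genes with an H3K27me3 region and 2 with an H3K9me2 region.

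Where G9a and H3K27me3 regions overlapped at these genes, their directions were mixed: 13 overlapping pairs of regions, at 6 genes, had the same direction, and 12, at 7 genes, the opposite one. Hk1 and Cpt1c held pairs of both kinds. At Hk1, the G9a region of 981 and 615 in the second pair overlapped the H3K27me3 region of 286 and 149 in that pair, each per the authors' deposited table, so that one was higher and the other lower in the second pair over the same stretch. At Slc2a1, G9a and H3K27me3 regions overlapped with both higher in the first pair. Between G9a and H3K9me2, 3 overlapping pairs had the same direction (at Acadm, Cpt1a and Hk1) and 3 the opposite one (at Acsl1 and Hk1). Overlaps over all listed regions were not counted, so this mix cannot be called particular to these genes.

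**Figure D4:**
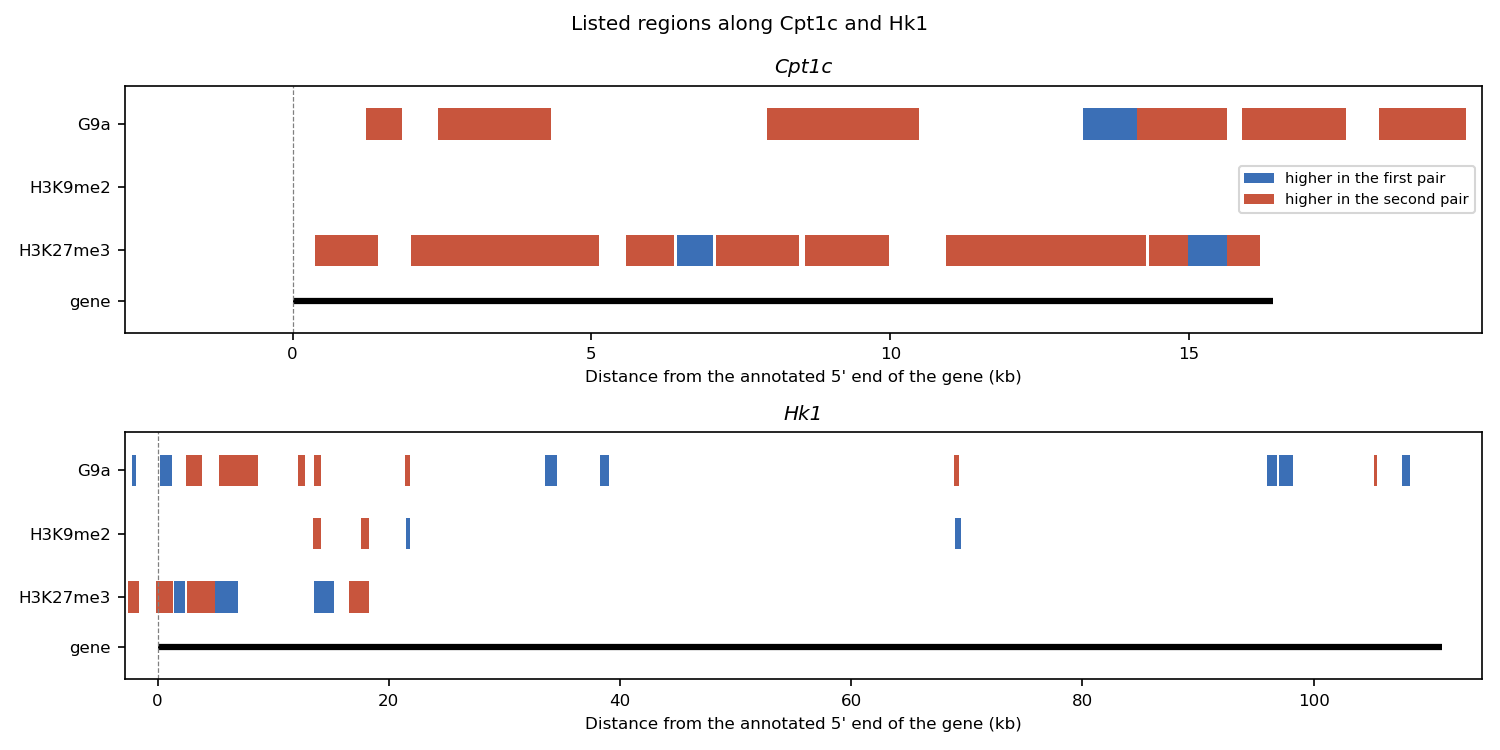
Listed G9a, H3K9me2 and H3K27me3 regions are drawn to scale along Cpt1c and Hk1, by distance in kb from the annotated 5′ end, blue where higher in the first and red where higher in the second pair, with the gene as a black line. Cpt1c is mostly red in G9a and H3K27me3 with no H3K9me2 region, and at Hk1 H3K27me3 regions lie in and just upstream of the 5′ part only, in both colours, while G9a regions run along the gene.

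Other genes of the same pathways or linked to them, called further fatty acid and glycolysis genes for short, were counted by the same overlap rule, without a test. The fatty acid list also held Acaca, Acacb, Fabp4 and Lpl. The glycolysis list also held genes of pyruvate and lactate handling, such as Pdk1, Pdk2, Pdk3, Pdk4, Pdha1, Pdhb, Mpc1, Mpc2, Slc16a1, Slc16a3 and Slc16a7. Of 29 further fatty acid genes, 27 had a G9a region (93.1%, against 84.0% of all genes), 16 an H3K9me2 region (55.2%, against 58.1%) and 14 an H3K27me3 region (48.3%, against 66.7%). Of 28 further glycolysis genes, 23 (82.1%), 16 (57.1%) and 18 (64.3%) did. Many of these are isoforms of liver, brain, blood or testis. Hk3, the hexokinase of blood cells, had the smallest p among these further genes, for H3K27me3 at chr13:54991101-55007100, with 5052 and 5703 versus 9970 and 8768 per the authors' deposited table (log2 difference 0.80, -log10 p 236), and its G9a region had 423 and 722 versus 1817 and 1266 per the authors' deposited table (log2 difference 1.43, -log10 p 98.1). Pklr, the pyruvate kinase of liver and red cells, had 3508 and 4250 versus 6514 and 5701 for H3K27me3 per the authors' deposited table (log2 difference 0.65, -log10 p 108). Hkdc1, next to Hk1 on the chromosome, had 330 and 557 versus 1505 and 782 for G9a per the authors' deposited table (log2 difference 1.36, -log10 p 68.0). At these 3 glycolysis genes the pairs were apart and the second pair was higher, as at Aldoc (G9a, log2 difference 1.55 per the authors' deposited table). The fatty acid genes with the smallest p for G9a were higher in the first pair: Slc27a6, a fatty acid transporter (-2.3), Acad10 (-2.13) and Acaca, an acetyl-CoA carboxylase (-2.17), as log2 differences per the authors' deposited table. Their second-pair values were 12 and 77, 7 and 104, and 15 and 70 per the authors' deposited table, so library 1 was the lower each time. No library was left out for these further genes. Acaca was also higher in the first pair for H3K27me3 (-1.2) and H3K9me2 (-2.23), while Fabp4 (0.49) and Acsl5 (0.83) were higher in the second for H3K27me3 per the authors' deposited table. For H3K9me2, Acacb had 80 and 94 versus 6 and 0 per the authors' deposited table, near 0 in the second pair, so no fold is given. Slc2a3 (-3.39, with 139 and 100 versus 20 and 1) and Bpgm (-1.71) were also higher in the first pair. Acsl5 (1.52) and Hk3 (2.25) were higher in the second, per the authors' deposited table.

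Markers of the cell types that an enriched preparation can hold were counted in the same way. An H3K27me3 region was listed at 0 of 10 cardiomyocyte markers (among them Myh6, Tnnt2 and Ttn), at 5 of 5 fibroblast, 5 of 5 endothelial, 4 of 4 smooth muscle and pericyte, and 4 of 5 leukocyte markers, against 66.7% of all genes. G9a regions were listed at 6 of 10 cardiomyocyte markers, 4 of 5 fibroblast, 5 of 5 endothelial, 4 of 4 smooth muscle and pericyte and 4 of 5 leukocyte markers, against 84.0% of all genes. For H3K9me2 the counts were 2 of 10, 4 of 5, 5 of 5, 3 of 4 and 4 of 5 in the same order, against 58.1%. These tables hold no expression values, so the labelled cell type could not be checked by RNA. The part of other cell types in the differences at the 39 genes was not tested.

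For any 1 region, 2 libraries against 2 allow an exact two-sided permutation p of 0.333 at the least. As a second look, limma on log2(value + 1) over all regions of each table called 0 regions at a Benjamini-Hochberg adjusted p under 0.05 for G9a (0.0% of 388424), H3K9me2 (0.0% of 245088) and H3K27me3 (0.0% of 552542). At an unadjusted limma p under 0.05, 6 of 112 G9a regions at the 39 genes were counted (5.36%), among 15286 over the table (3.94%). By pathway these were 5 of 56 at fatty acid genes (8.93%) and 1 of 56 at glycolysis genes (1.79%). For H3K9me2 there were 2 of 16 (12.5%), among 21446 (8.75%). For H3K27me3 there were 7 of 37 (18.9%), among 67865 (12.3%). The smallest limma p among the 39 genes were those of the H3K27me3 regions inside Slc2a1 (adjusted p 0.192) and Pfkp (adjusted p 0.230). No difference at a single region here was therefore shown to exceed the spread between replicates by that test, and the directions rest on the authors' own p.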

How the data were processed

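Chromatin from 12 immunoprecipitated libraries (3 antibodies, 2 conditions, 2 replicates each) was compared. Per the labels' protocols, the NuGEN Ovation Ultralow V2 kit was used. The submitters' processing notes name BWA 0.7.10-r789, SAMtools 1.1 and the build mm10 (GRCm38). No source used here gives the region caller, its scaling or any input correction. One table of regions per antibody was deposited by the authors. Its last column holds 4 whole numbers per region, whose unit is not stated and which were not treated as raw read counts, and a -log10 p. Sequencing depth is unknown, so no interval that needs it is printed.

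Gene positions came from the gene table of GRCm38.p6, without exons. Overlap of 1 bp with the gene plus 2500 bp counted. Analyses used Python 3.11.15, and limma 3.58.1 in R 4.3.3, checked on simulated data. That simulation gave all regions the same small spread and used large changes. It therefore does not show whether limma could call differences of the size and spread seen here. The count model planned for raw counts was not run. Replicates are samples labelled as biological replicates, and the limma p-values measure only the spread between them. What spread the authors' p measures is not stated. The members and lists were chosen with earlier results of these data known. Regions were named by rule. These were each member's region of smallest p, for the 8 members with the smallest p per table and direction. The region of smallest p of every isoform gene in each table and the promoter regions were added. Some regions named by rule are given by gene only, without values. Other regions with printed values were chosen after their values were seen. The alternatives were a p of at most 0.001, separated regions only, region midpoints, gene bodies or gene ends only, limma, median-ratio scaling, a pseudocount of 10, Ldha as a muscle isoform, and each library left out. No columns of other samples were found.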

Additional observations from a re-analysis of the deposited data

How the results depend on the processing

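With limma at an adjusted p of 0.05, every count of genes fell to 0. Counting gene bodies only gave 8 and 5 fatty acid genes with a first-pair and a second-pair G9a region and 3 glycolysis genes with a second-pair H3K27me3 region. Counting gene ends only gave 2 fatty acid genes and 0 glycolysis genes with a first-pair H3K9me2 region, 2 glycolysis genes with a second-pair G9a region, 0 heart or muscle isoforms with an H3K27me3 region and 1 other-tissue isoform with an H3K9me2 region. With separated regions only, 2 glycolysis genes had a second-pair H3K27me3 region and 0 heart or muscle isoforms an H3K27me3 region. With Ldha as a muscle isoform, that list had 2 genes with an H3K9me2 and 2 with an H3K27me3 region. Leaving out 1 library at a time gave 3 to 5 glycolysis genes with a second-pair H3K27me3 region. In these counts the cause of a change was not tested beyond the smaller search space or stricter rule itself. A p of at most 0.001, region midpoints and median-ratio scaling moved no count by more than 1.5 times.

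Of the 165 regions at the 39 genes, 36 (28 of 112 G9a, 1 of 16 H3K9me2 and 7 of 37 H3K27me3) lost their direction when some 1 library was left out, among them 6 of the 56 regions named by rule, and Cd36 (G9a), which was -1.32 without library 2 of the second pair. For those 6, over the 4 libraries, each left out in turn, the log2 difference ran from -0.01 to 3.6 at the Acot2 promoter (G9a), from -0.07 to 2.02 at Acsl1 (H3K9me2), and for H3K27me3 from -1.56 to 0.35 at a first-pair region of Cpt1c, from -0.05 to 0.94 at the Hk1 promoter, from -0.06 to 2.25 at Ldha and from -0.07 to 1.04 at Pkm. Library 2 of the first pair turned it at Cpt1c, Hk1, Pkm and Acsl1, library 1 of that pair at Acot2, and library 2 of the second pair at Ldha and Pkm (-0.06). Without library 2 of the second pair, 25 of 32 second-pair G9a regions kept their direction (78.1%, against 89.6% of all). Median-ratio scaling kept the direction of every region at the 39 genes. No paired analysis was possible because the value columns carry no replicate numbers.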
